A study of Caenorhabditis elegans with 2 samples.

Results

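The 10 genes described here encode the core of the insulin and TOR (target of rapamycin) pathways of Caenorhabditis elegans: the insulin receptor gene daf-2, its kinase cascade age-1, pdk-1, akt-1 and akt-2, the FOXO transcription factor gene daf-16, and the TOR genes rheb-1, let-363, daf-15 and rsks-1. They were chosen by name, with earlier results of these data known, out of 19973 protein-coding genes in the annotation. All 10 were found there. Their counts and the shares over all genes given beside them are therefore descriptions only. At each gene, regions were taken whose summit lay in the gene or within 5000 bp upstream of its annotated 5′ end, called the window of the gene below. Binding of a GFP-tagged transcription factor had been mapped by chromatin immunoprecipitation with sequencing (ChIP-seq) in 1 group of samples, with 2 biological replicates and no second group to compare. The larvae were of strain OP355 at the third larval stage (L3), of mixed sex, and carried the unc-119(tm4063) III mutation and the transgene wgIs355. The antibody label and the strain label give mdl-1 as the target, while the free text gives ZK337.2, so the protein is called the tagged factor here. The labels do not name the promoter that drives the transgene. Whole larvae were used, so strong binding in few cells and weak binding in many cannot be told apart, and no tissue can be assigned to a region.

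In this pathway, insulin-like peptides act through the receptor DAF-2 and the phosphoinositide 3-kinase AGE-1 to activate the kinases PDK-1, AKT-1 and AKT-2, which keep DAF-16 out of the nucleus. LET-363, the worm TOR kinase, works with DAF-15, the worm Raptor, in a complex that the GTPase RHEB-1 activates, and RSKS-1, the S6 kinase, acts downstream of it. The pathways control growth, dauer formation, metabolism and lifespan in the worm.

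The tagged factor had regions in the list thresholded by irreproducible discovery rate (IDR) at 5 of the 10 genes. They were daf-2, pdk-1, akt-1 and daf-16 in insulin signalling, and rheb-1 in the TOR arm. The IDR list held 9 regions at these genes, with 3 at daf-16, 2 each at daf-2 and pdk-1, and 1 each at akt-1 and rheb-1. That list equals the 1015 regions of highest signal in the list pooled from both replicates. Of its regions, 93.8% overlapped a region of each replicate. The region at rheb-1 lay 268 bp upstream of it and 310 bp upstream of spk-1, and cannot be assigned to either by distance. It was not among as many top regions of either replicate alone. No IDR summit lay in the windows of age-1, akt-2, let-363, daf-15 or rsks-1. Over all protein-coding genes, 7% had an IDR summit in a window of the same kind. Of the 10 genes, 3 had at least 2 IDR summits, against 1.03% of all protein-coding genes. When the IDR list was replaced by as many top regions from replicate 2, pdk-1 had 1 summit and daf-16 had 4. From replicate 1, pdk-1 had 1 and daf-16 had 5. In each case, of the 10 genes, only daf-16 and daf-2 then had at least 2. At least 3, as at daf-16, were found at 0.23% of all genes. The shares for at least 2 and at least 3 are over genes of all lengths and were not computed by window length. daf-16 and daf-2 have the longest windows of the 10 genes. With the upstream 5000 bp alone, 4 of the 10 genes had an IDR summit (daf-16, pdk-1, akt-1 and rheb-1), against 5.89% of all genes.

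Long genes offer more sequence, and some of these genes are long. daf-16 and daf-2 have windows of 31.2 and 51.3 kb, and of all genes with windows of 25 kb or more, 18.7% had an IDR summit. In the class from 10 to 15 kb, pdk-1 had an IDR summit and age-1, daf-15 and rsks-1 did not, against 10.8% of all genes in that class. akt-1 and akt-2 fell in the class from 7.5 to 10 kb, where 7.94% of all genes had one, and rheb-1 in the class below 7.5 kb, where 5.26% did. let-363, without an IDR summit, fell between 15 and 25 kb, where the share was 14.1%. Per length, the 10 windows together held 4.98 IDR summits per 100 kb and all protein-coding windows together 1.03. At the limit of the upstream reach, the pooled summit just inside lay 4764 bp upstream of pdk-1 (signal 9.03, rank 8831), and the one just outside lay 5287 bp upstream of daf-16 (9.92, rank 6992).

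The sequences within 100 bp of the 6 IDR summits at daf-2, pdk-1, akt-1 and rheb-1 are printed here because they show which motifs lie under the summits. They are the plus strand of ce11 (WBcel235), 201 bp each, centred on the summit. Capitals mark the letters of any of 7 motifs on either strand. One is CACGTG, the E-box bound by Myc, Mad and Max proteins, and one is CACGCG, a variant of it. TGTTTAC is a forkhead site bound by FOXO proteins, and TGACGT is part of a site bound by bZIP proteins. The others are GAGAGA repeats, the CTGCGTC motif and the GC-rich GGCGGG motif. Motifs may overlap, as GAGAGA and the reverse complement of CTGCGTC do in the second daf-2 region. daf-2 and rheb-1 lie on the minus strand, so their own direction is the reverse of the one printed.
akt-1 upstream region (chrV:10246495-10246695): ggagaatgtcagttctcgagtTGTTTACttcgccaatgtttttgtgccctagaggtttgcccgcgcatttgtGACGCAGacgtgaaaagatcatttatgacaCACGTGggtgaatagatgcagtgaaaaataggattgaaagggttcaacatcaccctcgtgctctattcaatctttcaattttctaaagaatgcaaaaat
daf-2 intron region nearer the 5′ end (chrIII:3037321-3037521): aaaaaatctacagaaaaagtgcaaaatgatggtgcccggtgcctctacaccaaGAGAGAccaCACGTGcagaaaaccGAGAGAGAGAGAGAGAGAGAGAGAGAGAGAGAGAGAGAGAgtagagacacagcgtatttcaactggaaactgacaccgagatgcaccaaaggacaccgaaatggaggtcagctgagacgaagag
daf-2 intron region farther from the 5′ end (chrIII:3036103-3036303): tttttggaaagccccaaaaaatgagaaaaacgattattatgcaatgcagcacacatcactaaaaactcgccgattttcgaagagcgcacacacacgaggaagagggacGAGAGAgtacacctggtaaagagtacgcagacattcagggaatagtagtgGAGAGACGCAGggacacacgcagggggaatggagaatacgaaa
pdk-1 upstream region (chrX:1319889-1320089): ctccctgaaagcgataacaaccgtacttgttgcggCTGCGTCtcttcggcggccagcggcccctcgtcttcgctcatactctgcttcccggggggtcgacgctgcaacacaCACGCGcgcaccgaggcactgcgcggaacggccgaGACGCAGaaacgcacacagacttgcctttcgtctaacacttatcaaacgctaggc
pdk-1 intron region (chrX:1323144-1323344): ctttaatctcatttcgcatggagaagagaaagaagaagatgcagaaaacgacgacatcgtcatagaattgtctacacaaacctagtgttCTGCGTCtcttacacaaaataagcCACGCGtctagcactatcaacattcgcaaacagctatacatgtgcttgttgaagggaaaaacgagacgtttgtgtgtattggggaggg
rheb-1 upstream region (chrIII:9456198-9456398): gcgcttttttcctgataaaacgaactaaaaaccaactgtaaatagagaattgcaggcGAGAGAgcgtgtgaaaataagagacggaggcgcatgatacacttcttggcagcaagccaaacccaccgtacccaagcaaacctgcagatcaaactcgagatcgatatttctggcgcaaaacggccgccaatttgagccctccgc

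The E-box was present at akt-1 and in 1 of the daf-2 regions, and absent from the other 7 IDR regions of these genes. The share was thus 2 of 9, against 29.6% of all IDR regions. At akt-1 the centre of CACGTG lay 4.5 bp from the summit, at 10246597 to 10246602 on chromosome V. At daf-2 it lay 35.5 bp from the summit, at 3037383 to 3037388 on chromosome III, next to a run of alternating G and A of 41 bp. Such runs of 20 bp or more, a length set after the sequences were seen, were also in the daf-16 region 19393 bp downstream of the 5′ end (28 bp) and in 1.38% of all IDR regions. GAGAGA was within 100 bp of the summit in 5 of the 9 regions, against 57.4% of all IDR regions.

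CTGCGTC was present in 4 of the 9 regions: in the region at akt-1, in both regions at pdk-1 and in the daf-2 region with the higher signal. Of all IDR regions, 22.6% had it. CACGCG was present in 3 of the 9, in both regions at pdk-1 and in the intron region of daf-16 at 1734 bp, against 16% of all IDR regions. Both regions at pdk-1 therefore held CTGCGTC and CACGCG together, a combination counted after the sequences were seen and found in 3.74% of all IDR regions. TGTTTAC was in the regions upstream of akt-1 and of daf-16, against 4.14% of all IDR regions. GGCGGG and TGACGT were in 0 of the 9, against 10% and 10.7% of all IDR regions. With 9 regions at 5 genes, of which 7 share a gene with another, these shares are descriptions only.

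daf-2, the only insulin receptor gene of the worm (WBGene00000898, chromosome III, 2994514 to 3040846, minus strand), had both IDR summits in the first intron of its longest transcript, Y55D5A.5c. The signal values in this and the following paragraphs are the peak caller's own and have no stated scale, so they rank regions within a list. The region at 3036021 to 3036384 had a pooled signal of 69.5 and ranked 173 of 30000 in the pooled list. Its signal was 17.5 in replicate 1 (rank 211) and 51.9 in replicate 2 (rank 180). Signals are not compared across lists, and the ranks place this region near the top of each.

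The other daf-2 region, at 3037239 to 3037602, had a pooled signal of 37.1 and rank 576. It ranked 569 in replicate 1 with a signal of 10.4 and 631 in replicate 2 with a signal of 26.7. The 2 summits lay 3425 and 4643 bp downstream of the start of Y55D5A.5c. The next start along the gene, that of Y55D5A.5a, lay 7403 bp beyond the farther of them, and no other protein-coding gene has its annotated start nearer. At the 5′ end itself the nearest pooled summit, 454 bp upstream, had a signal of 8.30 and rank 10853, and replicate 1 listed no region there. In all, daf-2 had 27 pooled summits, of which 25 were outside the IDR list, ranking from 4699 down to 29158. The signal at daf-2 was thus concentrated in the 2 intron regions rather than at the 7 annotated starts.

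age-1, which encodes the catalytic subunit of phosphoinositide 3-kinase (WBGene00000090, chromosome II, 11519328 to 11527054, minus strand), had the weakest best region of the 10 genes. Its 3 pooled summits ranked 6888, 18440 and 21219, and the highest had a signal of 9.98. None overlapped a region of replicate 1, although that list had 2 summits elsewhere in the window. The only one near the 5′ end lay 86 bp downstream of it, in an exon, and ranked 12542 in replicate 2. Of all protein-coding genes, 36.7% had a pooled region ranking at least as high as the best at age-1.

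pdk-1, which encodes the kinase that phosphorylates the AKT kinases (WBGene00003965, chromosome X, 1321344 to 1327986, plus strand), had 1 IDR region upstream and 1 in its second intron. The upstream region, at 1319807 to 1320170, had its summit 1355 bp upstream of the start of transcript H42K12.1b. Its pooled signal was 44.3 (rank 422), with 7.80 in replicate 1 (rank 1017) and 29.4 in replicate 2 (rank 541). The intron region, at 1323062 to 1323425, had its summit 1900 bp downstream of the 5′ end, a pooled signal of 26.7 and rank 972. It ranked 721 in replicate 1 and 1314 in replicate 2. The replicates thus placed the 2 regions in opposite orders. Replicate 1 listed only these 2 regions in the window, each with its summit at the same base as in the pooled list, while replicate 2 listed 10. The upstream summit had the highest GC content of the 9 IDR windows, 61.2%, against a median of 45.8% over all IDR regions.

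akt-1, which encodes an AKT (protein kinase B) kinase (WBGene00000102, chromosome V, 10248905 to 10252845, plus strand), had the region with the highest signal of all 10 genes. It lay at 10246413 to 10246776, with its summit 2310 bp upstream of the start of transcript C12D8.10b. The pooled signal was 88.4 (rank 108), with 21.1 in replicate 1 (rank 142) and 66.2 in replicate 2 (rank 106). The 3 summits lay within 9 bp of the pooled one. This was the highest region in the window in each list, and 0.701% of all protein-coding genes had a region ranking as high in their window. The nearest start of any other protein-coding gene, C12D8.9, lay 3390 bp from the summit, farther than that of akt-1. A second upstream region, 1697 bp from the 5′ end, had a pooled signal of 14.9 (rank 2672) and was listed in replicate 1 (rank 2861) and in replicate 2 (rank 2103). It held TGTTTAC and CACGCG within 100 bp of its summit and no CACGTG. At the start itself, the nearest pooled summit lay 198 bp downstream with a signal of 5.62.

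akt-2, which encodes the second AKT kinase (WBGene00000103, chromosome X, 14147700 to 14152070, plus strand), had no IDR summit, and its highest region appeared in 1 replicate only. That region, 817 bp upstream of the single annotated start, had a pooled signal of 21.6 and rank 1395. It ranked 984 in replicate 2, with a signal of 20.7, and was not listed in replicate 1. Of the regions of these genes outside the IDR list, it was the highest by pooled rank. The next, in an exon 1629 bp downstream, had a pooled signal of 14.0 (rank 3045), ranked 2471 in replicate 2 and was also not listed in replicate 1. Of the 6 pooled regions at akt-2, 0 had CACGTG within 100 bp of the summit.

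**Figure D1:**
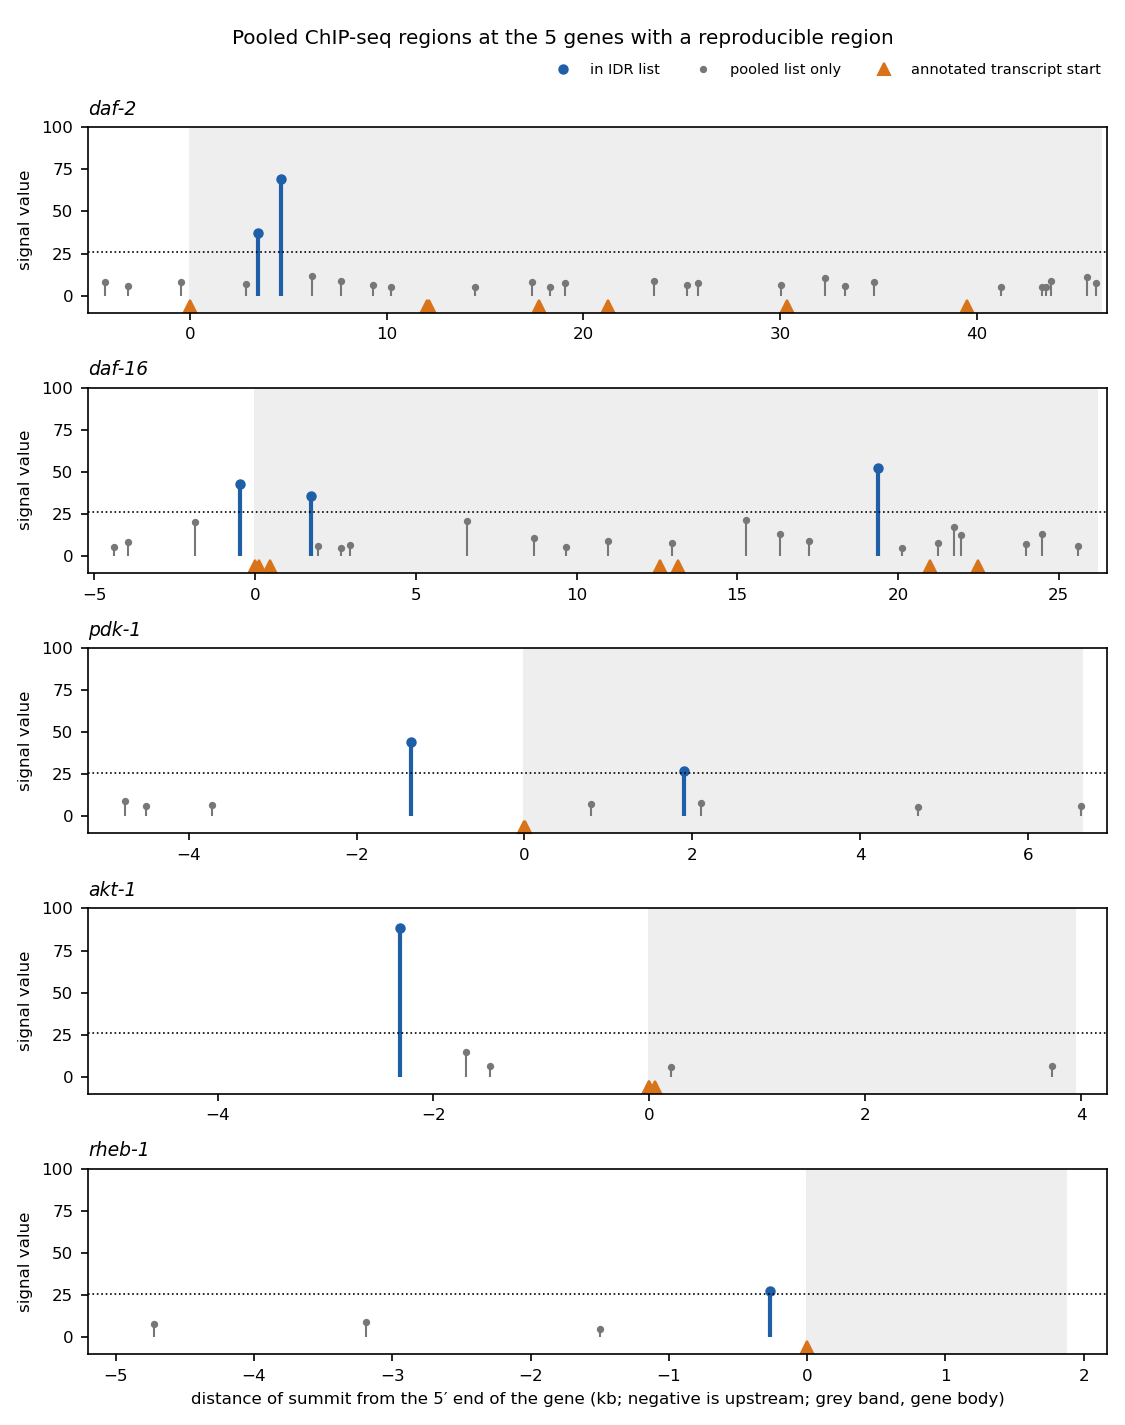
Pooled regions at the 5 genes with a region in the IDR list. Distance is that of the summit from the 5′ end of the gene in kb (negative is upstream, grey band is the gene body). Height is the signal value of the pooled list (no stated scale). Blue marks regions in the IDR list, grey those in the pooled list only, triangles annotated transcript starts, and the dotted line the lowest IDR signal, 25.9. The blue regions of daf-2 stand 3425 and 4643 bp inside the gene, and that of akt-1, at 88.4, stands 2310 bp upstream.

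daf-16, the FOXO gene on which insulin signalling converges (WBGene00000912, chromosome I, 10750498 to 10776703, plus strand), has 11 annotated transcripts with 7 different starts, in groups near the 5′ end, near the middle and near the 3′ end of the gene. IDR regions lay nearest to the first and the last of these groups. The first region, at 10749858 to 10750221, had its summit 458 bp upstream of the outermost start (R13H8.1h), 592 bp upstream of that shared by transcripts f and i and 920 bp upstream of that shared by d and k. Its pooled signal was 42.9 (rank 444), with 11.7 in replicate 1 (rank 466) and 32.3 in replicate 2 (rank 479). The summit of replicate 2 lay 110 bp closer to the gene than the pooled one, the largest shift among the 9 IDR regions.

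The second daf-16 region, at 10752050 to 10752413, lay in an intron 1272 bp downstream of the start shared by d and k. Its pooled signal was 35.4 (rank 616), with 11.1 in replicate 1 (rank 512) and 21.9 in replicate 2 (rank 896). The third, at 10769709 to 10770072, had the highest signal of the gene, 52.4 (rank 312), with 11.8 in replicate 1 (rank 457) and 41.9 in replicate 2 (rank 285). Its summit lay 19393 bp from the 5′ end of the gene, inside an intron of the long transcripts, but 1617 bp upstream of the start of transcript R13H8.1a. It was therefore nearer to the start of R13H8.1a than to any other. The starts of transcripts b and c and of l and m, in the middle of the gene, lay 6788 and 6237 bp from the nearest IDR summit, and the nearest pooled summit to them had a signal of 7.96 and rank 12019.

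daf-16 also had the most pooled regions of high rank among the 10 genes, with 10 of the 5000 highest pooled regions, against 3 at daf-2 and at most 2 at any other of the 10. Those outside the IDR list included summits at 15262 bp (signal 21.4, rank 1418), at 6586 bp (20.8, rank 1492) and 1865 bp upstream (20.2, rank 1564). The upstream one held a CACGTG and ranked 594 in replicate 1 and 2502 in replicate 2. The one at 6586 bp ranked 922 in replicate 2 and was not listed in replicate 1. None of the 3 IDR regions at daf-16 held a CACGTG.

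rheb-1, the gene of the small GTPase that activates TOR (WBGene00010038, chromosome III, 9454163 to 9456030, minus strand), had 1 IDR region, at 9456116 to 9456479. Its summit lay 268 bp upstream of rheb-1 and 310 bp upstream of spk-1, an SR protein kinase gene on the opposite strand, so the region sits between 2 divergent genes and cannot be assigned to either by distance. The pooled signal was 27.2 (rank 939), close to the lowest in the IDR list, 25.9. It was 4.85 in replicate 1 (rank 3393) and 19.8 in replicate 2 (rank 1064). By rank within a replicate, this was the weakest of the 9 IDR regions in replicate 1. Its sequence had 1 of the 7 motifs, a single GAGAGA.

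let-363, the TOR kinase gene (WBGene00002583, chromosome I, 5245743 to 5263424, plus strand), had 6 pooled summits, and each was nearer to the start of another gene than to its own. The highest, in an intron 16053 bp from the 5′ end, had a pooled signal of 16.5 (rank 2201), and ranked 10238 in replicate 1 and 2580 in replicate 2. It lay 1898 bp upstream of the start of vep-1. The nearest pooled summit to the start of let-363, 1422 bp upstream, had a signal of 8.09 and lay 38 bp from the start of mrpl-47. The highest region of replicate 1 in the window (rank 1791) overlapped no pooled region.

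daf-15, the Raptor gene (WBGene00000911, chromosome IV, 9386208 to 9394979, plus strand), had a pooled summit 13 bp downstream of its outermost start, the closest of any gene in the group. That region had a signal of 10.7 (rank 5721), and ranked 3846 in replicate 1 and 14402 in replicate 2. It was the only region of replicate 1 in the window. The highest pooled region, 2792 bp upstream with a signal of 19.4 (rank 1674), was listed in replicate 2 (rank 3510) and not in replicate 1, and the start of C10C5.7 was nearer to it. rsks-1, the S6 kinase gene (WBGene00012929, chromosome III, 11245120 to 11252281, plus strand), had 6 pooled regions, the highest 1565 bp upstream with a signal of 11.3 (rank 5046). It ranked 6699 in replicate 1 and 3054 in replicate 2. Neither daf-15 nor rsks-1 had CACGTG within 100 bp of any pooled summit.

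**Figure D2:**
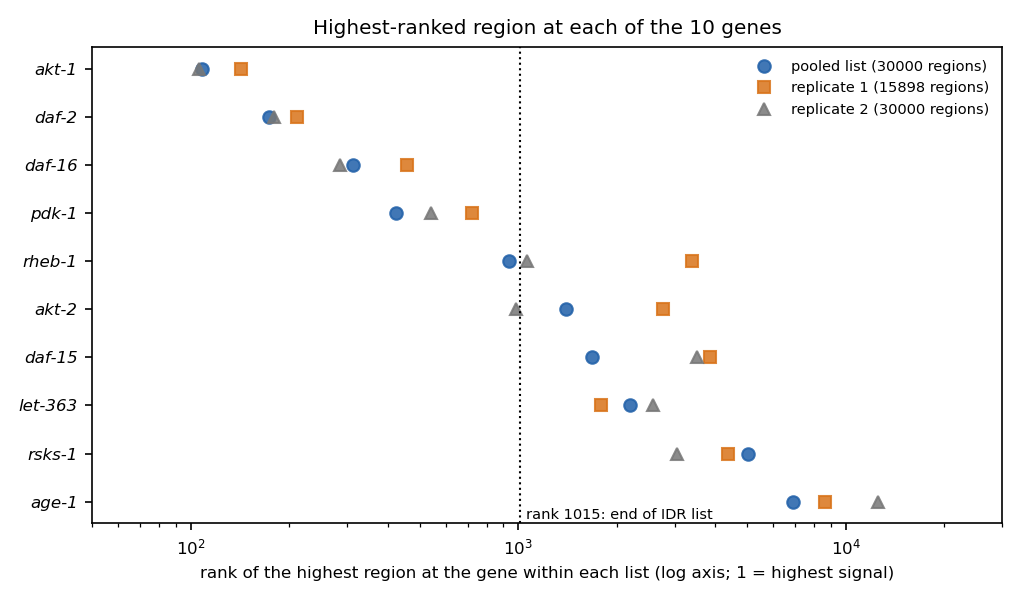
Rank of the highest region in the window of each of the 10 genes, in the pooled list and in each replicate list (log axis, 1 is the highest signal). The dotted line at rank 1015 ends the IDR list. akt-1, daf-2, daf-16 and pdk-1 lie left of it in all 3 lists, rheb-1 in the pooled list alone and akt-2 in replicate 2 alone.

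Lower-ranking regions were found at every gene and separate these genes less from the rest. All 10 had a pooled summit in the window, against 84.5% of all protein-coding genes, and 8 of 10 had one of the 5000 highest, against 28.4%. The 2 without were age-1 and rsks-1. All 10 had at least 1 summit of each replicate list, against 60.4% of all genes. These shares are over genes of all lengths and were not computed by window length. Of the 19973 genes, 12028 have windows below 7.5 kb, and of the 10 only rheb-1 does. The 10 windows held 96 pooled summits, or 53.1 per 100 kb, against 30.3 in all protein-coding windows. age-1 and let-363 held 2.36 and 2.65 summits per 10 kb, while pdk-1 and daf-16 held 7.73 and 7.69. age-1 and let-363 were thus below the density over all windows, and the other 8 genes above it.

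**Figure D3:**
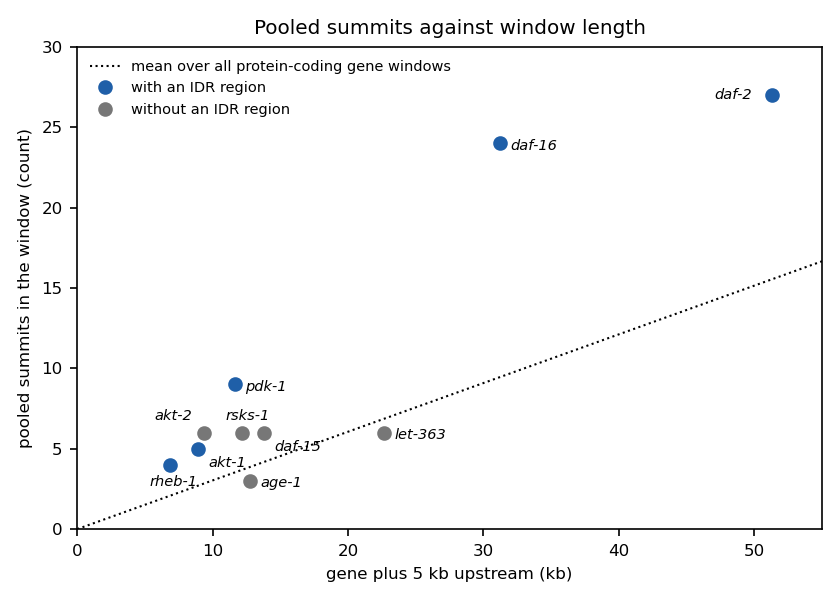
Number of pooled summits in the window of each gene against the length of the window in kb. The dotted line is the mean density over all protein-coding windows, 30.3 per 100 kb. daf-16, with 24 summits, and daf-2, with 27, lie above it, and age-1, with 3, and let-363, with 6, lie below it.

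The replicates were then compared region by region. All 9 IDR regions overlapped a region in each replicate, against 93.8% of all IDR regions. Of the 96 pooled regions, 75 (78.1%) overlapped one of replicate 2 and 37 (38.5%) one of replicate 1, against 74.7% and 30.3% of all pooled regions. In both replicates it was 30 (31.2%), against 20.3%. A further 14 overlapped none, and the share of all pooled regions that overlapped none was not computed. A replicate region can overlap neighbouring pooled regions and then counts for each. The list of replicate 1 has 15898 regions and that of replicate 2 has 30000, and the part of list length in the lower share for replicate 1 was not tested. The pooled ranks follow replicate 2 more closely at akt-2 and rheb-1, where replicate 1 listed no region or ranked it far lower.

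**Figure D4:**
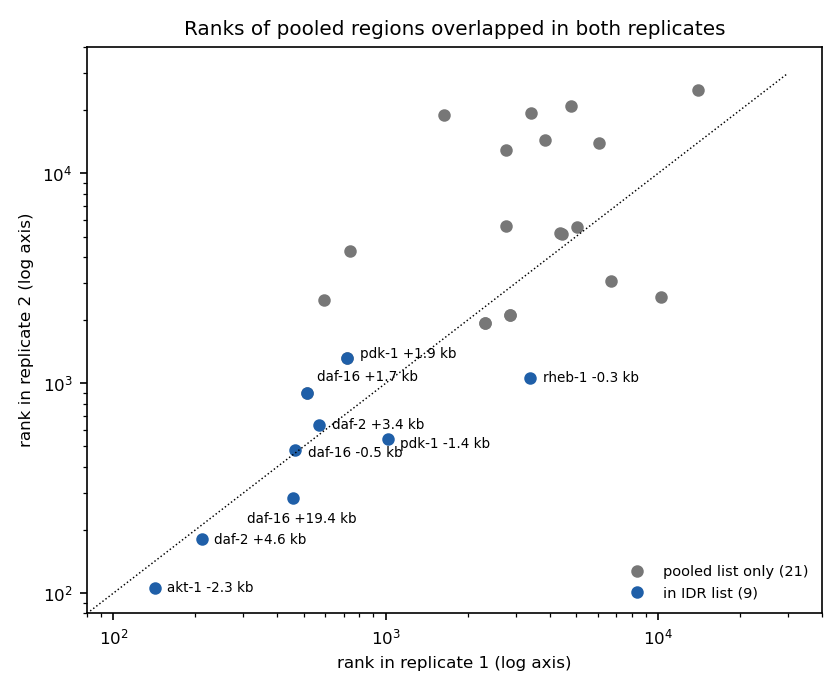
Rank in replicate 1 against rank in replicate 2 (log axes) for the 30 pooled regions of these genes that overlap a region in each replicate. The dotted line marks equal ranks, and labels give the gene and the distance from its 5′ end in kb. The 9 IDR regions (blue) rank 142 to 3393 in replicate 1 and 106 to 1314 in replicate 2.

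By position, 4 of the 9 IDR summits lay upstream of the gene, 5 in introns and 0 in exons. Of all IDR regions, 64.5% had the summit outside protein-coding genes, 29.2% in an intron and 6.31% in an exon. Of the 96 pooled summits, 26 lay upstream, 51 in introns and 19 in exons of the gene itself. Counted over any protein-coding gene, 17.7% of the 96 lay outside genes, 58.3% in introns and 24.0% in exons, against 42.5%, 34.3% and 23.1% of all pooled regions. The windows were drawn around genes, which bears on the share outside them. All 9 IDR summits were nearer to a start of the gene than to a start of any other protein-coding gene. The median distance was 1617 bp. At rheb-1 the distance was 268 bp, against 310 bp to spk-1, too close to assign the region to either. Of the 96 pooled summits, 72 were nearest to the gene itself. The E-box was within 100 bp of 8 of the 96 (8.33%), against 5.4% of all pooled regions. The 8 were 3 at daf-2 and 1 each at daf-16, age-1, pdk-1, akt-1 and let-363. Their pooled ranks were 576, 9737 and 26706 at daf-2, 1564 at daf-16 and 108 at akt-1. At pdk-1, age-1 and let-363 they were 8831, 21219 and 23318. The one at age-1 lay 7 bp from the start of another gene, and the one at let-363 overlapped no region of either replicate. GAGAGA was in 22 of the 96 regions, against 15.8% of all pooled regions. CACGCG and CTGCGTC were in 5 each, against 3.56% and 3.84%. TGTTTAC was in 7, against 2.6%. GGCGGG was in 3, against 4.52%, and TGACGT in 2, against 6.93%. Over all pooled regions, CTGCGTC and CACGCG stood together in 0.293%, and a run of G and A of 20 bp or more was found in 0.237%.

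Other genes of the pathways were examined as a list of 48, of which 47 were found in the annotation (epg-1 was not matched by that name). Of the 47, 8 had an IDR summit in the window (17%, against 7% of all genes) and 41 had a pooled summit, a share close to the 84.5% of all genes. In insulin signalling 5 of 15 had one: ist-1, which encodes an insulin receptor substrate homologue (pooled signal 34.5, rank 651), pptr-1, a phosphatase subunit that acts on AKT-1 (44.7, rank 415), the 14-3-3 genes ftt-2 (27.3, rank 929) and par-5 (40.1, rank 493), and smk-1, a cofactor of DAF-16 (35.0, rank 629). The region at pptr-1 ranked 327 in replicate 1 and 422 in replicate 2. smk-1 had 2 IDR summits, and the region with the higher signal was not listed in replicate 1 and lay nearer to vps-60. The region at par-5 lay nearer to M117.3. The region at ist-1 held a CACGTG but ranked 12734 in replicate 1, against 468 in replicate 2. That at ftt-2 ranked 7253 in replicate 1 and 892 in replicate 2, and that at par-5 ranked 1632 and 496. The shares of 17% and 7% are over windows of all lengths and include summits that lie nearer to another gene.

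Among 8 TOR complex and regulator genes, 1 had an IDR summit: flcn-1, the folliculin gene (47.6, rank 381), whose region lay nearer to F22D3.4. nprl-2, a negative regulator of TOR, had the next highest pooled region of that group (17.5, rank 1976), near the start of dif-1. Of 7 genes that act downstream of TOR, 2 had IDR summits. hlh-30, the TFEB gene, had 4, the highest with a signal of 96.5 (rank 82), a CACGTG and ranks of 54 in replicate 1 and 107 in replicate 2. unc-51, the autophagy kinase gene, had 1 (49.1, rank 352). None of the 6 insulin-like peptide genes had an IDR summit, and the best pooled ranks there were 8920 at ins-1 and 11476 at ins-4. None of 11 genes listed as DAF-16 targets had one either, and the best pooled ranks were 3533 at hsp-12.6 and 4295 at scl-1, whose regions were not listed in replicate 1. At the 7% share over all genes, a count of 0 among so few says little about those groups.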

How the data were processed

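The data were lists of called ChIP-seq regions in build ce11 from 2 biological replicates of 1 group. Per the deposited file descriptions, the authors made each replicate list from that replicate's alignment and a control alignment, the pooled list from both, and the IDR list from all of these. The IDR list equals the 1015 highest pooled regions, so it adds no separate ranking. The labels and file headers name no aligner, caller or threshold, and read depth is unknown. The deposited signal value of a region is treated as a score with no stated scale and ranks regions within its list only. The other deposited column used is the summit offset.

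Regions were placed on WBcel235 (ce11) with Ensembl release 115 annotation, in 1-based coordinates. Annotated starts can be trans-splice sites in worms. Overlap means at least 1 bp. Where several replicate regions overlapped a pooled one, the highest was used. The code was checked on simulated regions. The members, lists, motifs and alternatives were chosen with earlier results of these data known, and no test was made. Named genes are the 10 members, other pathway genes with an IDR summit, and the 2 of highest pooled signal in each group. Calculations used Python 3.11.15, numpy 2.4.6, pandas 2.3.3 and matplotlib 3.10.9.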

Additional observations from a re-analysis of the deposited data

How the results depend on the processing

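The number of the 10 genes with an IDR summit was 5, and 4 or 5 under the alternatives tried, while the share over all genes ranged from 3.47% to 7.23%. akt-1 dropped out with a reach of 1000 or 2000 bp, daf-2 with upstream sequence alone, and rheb-1 with the 507 regions of higher signal. Counting a summit only for the gene with the nearest start, an alternative added after the data were seen, left 5, against 3.74% of all genes. In that count rheb-1 stood on a distance of 268 bp, against 310 bp to spk-1. With the 1015 highest regions of a single replicate the count was 4 to 5: rheb-1 was lost without replicate 1 and without replicate 2, and akt-2 was gained without replicate 1. The count with a pooled summit was 8 to 10 (10 with either replicate left out). It was 8 with the 5000 highest regions, against 28.4% of all genes, and 9 or 10 otherwise, against 61.3% to 85.8%. The count with summits in both replicate lists was 9 to 10, except 6 with upstream sequence alone. Shares over all genes were not computed for that count under the alternatives. The 8 of 96 pooled regions with CACGTG became 5 of 75 with a reach of 1000 bp and 3 of 26 with upstream sequence alone. With 50 bp on each side of the summit there were 5 of 96, and with 200 bp 16 of 96. Of the 9 IDR regions, 2 held CACGTG. With a replicate left out, it was in 9 of 89 regions without replicate 1 and in 4 of 51 without replicate 2. Apart from the 29.6% of all IDR regions, no shares over all regions were computed for these alternatives. A wider stretch around the summit can hold more copies at any region. No paired analysis was possible because there is 1 group. Read depth is unknown, so a region missing from a list does not show that binding was absent.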
